A study of Mus musculus with 8 samples.

Results

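The comparison was between cells that carried the Hoxb1-GFP reporter and cells of the same dissections that did not, gene by gene, in mouse embryos at embryonic day 9.5. The region of the second heart field (SHF) was dissected from Hoxb1GFP embryos, several embryos were pooled, and cells were separated by flow cytometry into GFP-positive (GFP+) and GFP-negative (GFP-) cells. GFP+ cells gave 3 libraries and GFP- cells gave 1. Genes entered when they had a mean of at least 10 normalized reads over these 4 libraries, where the size factor of each library scales its read numbers, and 15776 of the 16302 genes in the table did. The other 526 genes were left out. Gm22840, just inside with a mean of 10.003, had 10.2, 0.92 and 13.2 normalized reads in the GFP+ libraries, against 15.6 in the GFP- library, and Trim63, just outside with 9.998, had 7.31, 19.4 and 5.51, against 7.82. The Hoxb1GFP allele places the reporter at Hoxb1, it appears in the study's methods under the symbol that is also used for the Hoxb1 mutant allele, and both sides of the comparison carry it. An effect of the allele on either side was not tested. A second pair, Tomato+ cells (3 libraries) and Tomato- cells (1 library), came from other embryos, Mef2c-Cre;RosatdT, dissected for the SHF region. It is given beside the first as values only. In that line an enhancer of Mef2c that is active in the anterior part of the field drives Cre, which switches on tdTomato in these cells and their descendants.

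The SHF is the pool of progenitor cells in splanchnic mesoderm, behind the heart and beneath the foregut, from which both poles of the heart tube grow. Its anterior part feeds the outflow tract and the right ventricle. Its posterior part (pSHF) feeds the atria and the venous pole, is exposed to retinoic acid, and expresses anterior members of the Hox clusters, among them Hoxb1. The dissected region also holds foregut and pharyngeal endoderm, the walls of blood vessels with primitive red blood cells inside them, neural crest cells and parts of the body wall. Cells without GFP signal are therefore a mixture and not a single cell type.

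The GFP+ libraries held 41597870, 37909912 and 27268520 reads, and the GFP- library held 32793811. Mitochondrial genes took 34.5%, 42.4% and 33.8% of the reads in GFP+ libraries and 32.7% in the GFP- library. GFP+ replicates 1 and 3 were nearly alike, with chi-square per degree of freedom of 2.35 over genes with 20 reads or more in both libraries summed, against 93.0 and 82.4 for the pairs with replicate 2. Between replicates 1 and 3, 0.944% of genes differed 2-fold or more, against 14.1% between replicates 1 and 2 and 14.5% between replicates 2 and 3. The study calls the 3 libraries biological replicates, and the labels do not say which pool of embryos each came from. With 1 GFP- library there was no measure of spread on that side. The smallest p that an exact one-sided permutation of 3 against 1 can give is 0.25, so no p-value is given and the ratios describe these 4 libraries. Transcripts of Xist and of the Y-linked genes were present on both sides. Xist had 53063, 51438 and 51546 normalized reads in the GFP+ libraries, against 33155 in the GFP- library. The Y-linked gene Kdm5d had 1567, 1478 and 1507, against 1866. Both differences were under 2-fold, and whether the mix of male and female embryos differed between the sides was not tested. In bulk RNA of this kind, fewer cells of a type and less RNA per cell cannot be told apart.

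Stretches upstream of 3 genes are shown as examples. They are Hoxb1, whose locus carries the reporter, Rhag, a red-cell membrane protein gene with the lowest log2 ratio of the genes named here, and Hbb-y, an embryonic beta-like globin gene. The sequences are RefSeq's on build GRCm38.p6, run 5′ to 3′ on the strand of the gene and cover positions -250 to -26 from the RefSeq start. They lie at chr11:96365508-96365732 on the plus strand (Hoxb1), chr17:40810899-40811123 on the plus strand (Rhag) and chr7:103853233-103853457 on the minus strand (Hbb-y). Capitals mark matches on either strand to TGATNNA, the core of sites bound by Hox and Pbx proteins, to GATAA, the core of GATA factor sites, and to CCACCC, the box bound by Klf1 in red-cell genes.
Hoxb1: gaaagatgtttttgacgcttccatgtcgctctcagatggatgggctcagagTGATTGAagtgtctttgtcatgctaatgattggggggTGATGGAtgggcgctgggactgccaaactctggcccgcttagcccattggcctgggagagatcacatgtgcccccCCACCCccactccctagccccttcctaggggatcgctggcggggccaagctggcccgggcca
Rhag: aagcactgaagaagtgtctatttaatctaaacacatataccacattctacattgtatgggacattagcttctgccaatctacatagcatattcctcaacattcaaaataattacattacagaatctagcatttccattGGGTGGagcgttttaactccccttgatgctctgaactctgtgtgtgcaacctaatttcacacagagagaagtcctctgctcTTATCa
Hbb-y: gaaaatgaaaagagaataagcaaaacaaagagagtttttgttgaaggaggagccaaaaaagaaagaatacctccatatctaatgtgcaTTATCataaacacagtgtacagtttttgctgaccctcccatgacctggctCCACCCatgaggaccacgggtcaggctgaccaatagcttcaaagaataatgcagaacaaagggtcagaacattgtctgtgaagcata
The Hoxb1 stretch held TGATNNA at -199 to -193 and at -162 to -156, and CCACCC at -87 to -82. The Rhag stretch held GATAA at -31 to -27 and CCACCC at -112 to -107, both on the opposite strand, and the Hbb-y stretch held GATAA on the opposite strand at -162 to -158 and CCACCC at -112 to -107. Such matches are common: TGATNNA was found in 26.3%, GATAA in 21.1% and CCACCC in 25.5% of the 32851 RefSeq promoter stretches of this length. No match overlapped another, and a match is a run of letters, not a measured site. A link between the matches and the ratios was not tested. Of the 15776 genes, 10266 (65.1%) had an entry in the promoter table.

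A gene was said to stand apart when the GFP- library lay at least 2-fold outside every GFP+ library on the scale of normalized reads + 1 and the higher side (the GFP+ mean or the GFP- value) had at least 50 normalized reads. By this rule 698 genes (4.42% of 15776) were higher and 592 (3.75%) were lower in GFP+ cells. These shares are the background for the counts of gene lists below. The lists were chosen with earlier results of these data known, so their counts and directions are not independent evidence. A gene under 10 in the GFP- library or in the GFP+ mean passed the filter only through the other side. The filter therefore set the direction of such genes. The log2 ratio is the mean of log2(normalized reads + 1) over the GFP+ libraries minus that of the GFP- library. Its median over all genes was -0.01, and 90% of genes lay between -1.38 and 1.37. Under a 4-fold rule 221 genes were higher and 148 lower, under a 16-fold rule 38 and 43, and under a 64-fold rule 9 and 18. The counts were larger without replicate 2, with 1163 genes higher and 1073 lower, and with replicates 1 and 3 averaged into a single library 731 were higher and 648 lower. Without replicate 2 the pSHF, foregut mesenchyme and endoderm lists described below kept their counts, 24 of 24 erythroid genes were lower, and 8 of 22 BMP genes were higher and 3 lower. Other lists rose or fell: higher FGF genes went from 8 to 10, epithelial genes from 11 to 10 and intermediate mesoderm genes from 5 to 4. With fewer GFP+ libraries the rule is looser, so kept or larger counts are not evidence of stability.

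**Figure D1:**
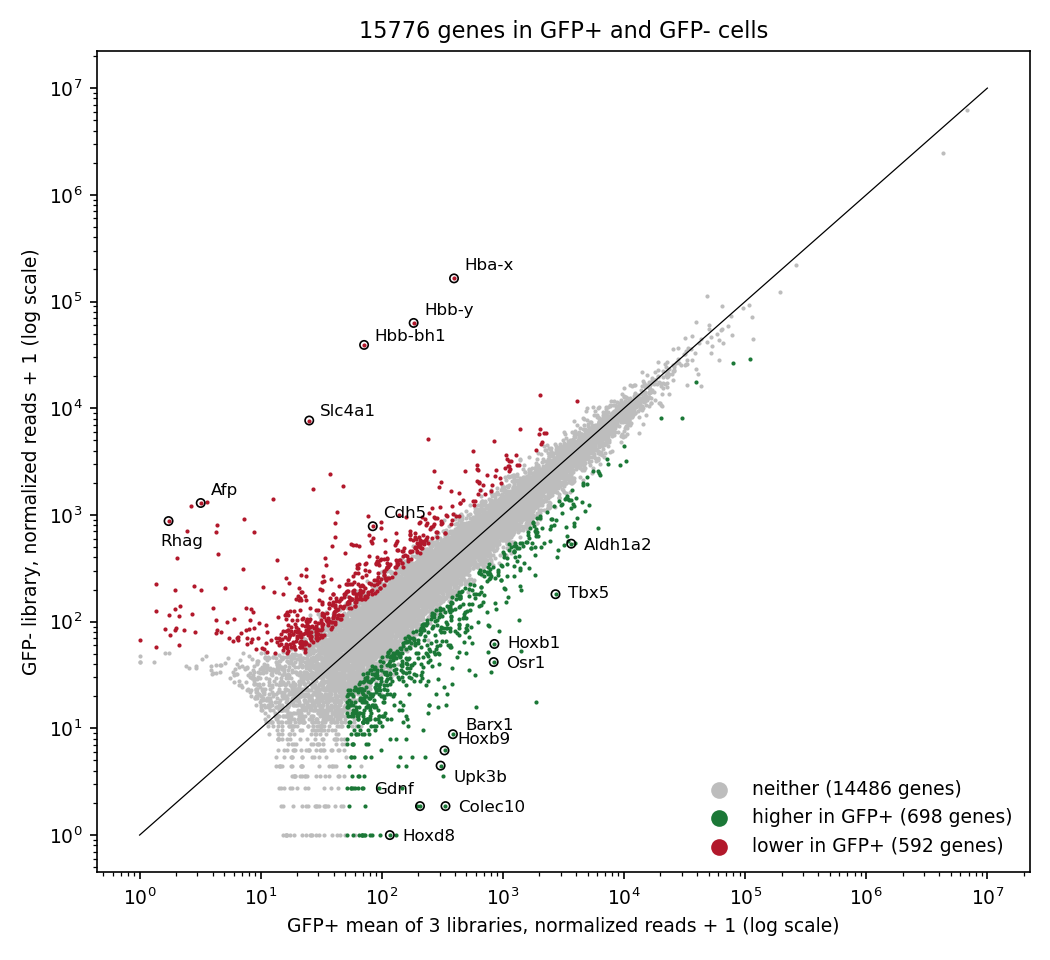
Normalized reads + 1 of each gene as the GFP+ mean of 3 libraries (x axis, log scale) and in the single GFP- library (y axis, log scale), with the line of equality. Green points are the 698 genes higher in GFP+ cells and red points the 592 lower ones, and the globin genes Hba-x, Hbb-y and Hbb-bh1 lie farthest above the line among abundant genes.

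Hoxb1 itself, the gene that drives the reporter, had 843, 719.9 and 986 normalized reads in the GFP+ libraries, against 60.8 in the GFP- library (log2 ratio 3.77). Every GFP+ library was above the GFP- library, and the GFP- library held 70 reads of the gene. Hoxb1 lies on chromosome 11 from 96365752 to 96368256 (GRCm38, plus strand). The 5 genes used as markers of the GFP+ cells all stood apart on the higher side. They were chosen with earlier results of these data known, so this direction is not evidence. Osr1, a zinc-finger factor of the pSHF, the lateral plate and the intermediate mesoderm, had 862, 863 and 791 normalized reads in the GFP+ libraries, against 40.8 in the GFP- library. Tbx5, a T-box factor required for atrial and inflow development, had 2992, 2044 and 3117 in the GFP+ libraries, against 179.8. Osr1 was nearly even across the GFP+ libraries and Tbx5 was lowest in replicate 2, and in both genes every GFP+ library lay far above the GFP- library (log2 ratios 4.33 and 3.89).

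Hoxb9 had 376, 248 and 361 normalized reads in the GFP+ libraries, against 5.21 in the GFP- library. Barx1, a homeobox factor of stomach and oesophageal mesenchyme, had 408, 319 and 429, against 7.82. Upk3b, a uroplakin of the mesothelium, had 393, 135 and 385, against 3.47. The GFP- values of these 3 genes rest on 6, 9 and 4 reads, and replicate 2 was the lowest GFP+ library for each of them. Their log2 ratios were 5.704, 5.44 and 5.94, with GFP+ means of 328 ± 70.01, 385 ± 58.6 and 305 ± 147 normalized reads (SD, n = 3 each).

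**Figure D2:**
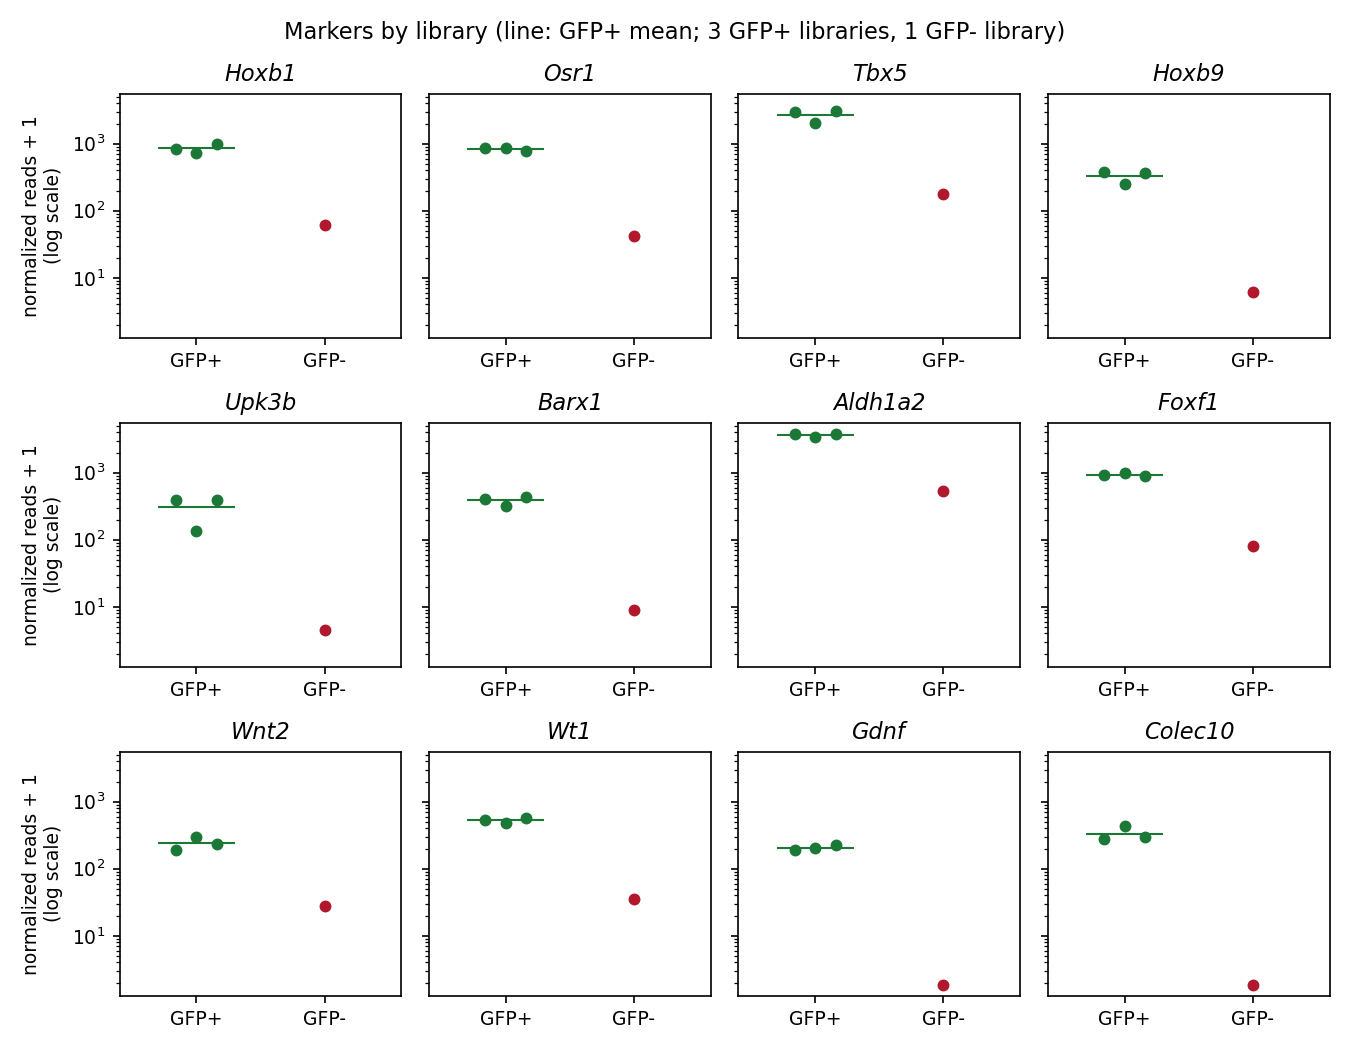
Normalized reads + 1 (y axis, log scale) of 12 genes in each GFP+ library (green, line at the mean) and in the GFP- library (red). Every GFP+ point lies above the GFP- point of its gene, and the lowest GFP- points are those of Gdnf and Colec10, with 1 read each.

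Of the 13 genes that the study names for the pSHF, 12 stood apart on the higher side, with a median log2 ratio of 2.01 over the 13. The study reports these genes for the same libraries, so the direction of this list is not independent evidence. Aldh1a2, the enzyme that makes retinoic acid in the trunk mesoderm, had 3724, 3429 and 3835 normalized reads in the GFP+ libraries, against 537 in the GFP- library (log2 ratio 2.77). Foxf1, a forkhead factor of splanchnic mesoderm that responds to Hedgehog signals, had 915, 989 and 882, against 80.8 (3.51). Wnt2, a ligand of the posterior pole and of lung mesenchyme, had 191, 296 and 237, against 26.9 (3.09). In Aldh1a2 and Foxf1 the GFP+ libraries were close to each other, Wnt2 spread more, and in none did the groups overlap.

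Smaller ratios were seen for Gata4 (2.01), Bmp4 (1.81), Tbx18 (1.72), Nr2f2 (1.28), which encodes the atrial and venous factor COUP-TFII, and Sema3c (1.22). Hoxa3 was the member that did not stand apart. It had 951, 481 and 857 in the GFP+ libraries, against 443, and replicate 2 was close to the GFP- library.

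The median log2 ratio of the Hox genes was 0.68 in paralogue groups 1 to 4 and 3.94 in groups 5 to 8. Hox genes are arranged in 4 clusters, and their order along the cluster follows the order of their anterior expression limits along the body. In groups 1 to 4, 3 of 12 genes were higher, Hoxb1 and Hoxb4 among them. Hoxb4 had 1133, 1101 and 1158 normalized reads in GFP+ libraries, against 535 in the GFP- library, a log2 ratio of 1.08 that misses the rule when library sizes leave out mitochondrial and globin genes. Hoxa2 (0.02), Hoxb2 (-0.15), Hoxb3 (0.08) and Hoxd4 (0.05) were nearly even, and Hoxd3 was at -0.61.

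All 11 genes of groups 5 to 8 were higher. Hoxa5 had 776, 702 and 769 normalized reads in the GFP+ libraries, against 92.9 in the GFP- library. Hoxb6 had 347, 226 and 305, against 14.8, and Hoxb8 had 415, 201 and 418, against 19.98. The lowest ratios of these groups were those of Hoxb5 (1.96), Hoxc6 (2.02) and Hoxc5 (2.47). Hoxc8 and Hoxd8 had no read in the GFP- library. Hoxc8 had 78.99, 63.6 and 70.5 normalized reads in the GFP+ libraries, which is at least 27.3-fold higher against a floor of 3 reads in the GFP- library, and Hoxd8 had 113, 123 and 111, at least 44.3-fold higher.

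Of groups 9 to 13, 10 genes were in the table and 7 had a mean of 10 or more. In all 7 every GFP+ library was above the GFP- library, where 33.6% of all genes had this order, and 3 stood apart (Hoxb9, Hoxa9 and Hoxd9). These genes had 5.21 normalized reads or fewer in the GFP- library, so they passed the filter only through the GFP+ libraries. The direction of this list was therefore set by the filter and is not evidence. The median log2 ratio was 4.48, or 3.57 with the 4 genes at 0 in the GFP- library set to the floor. Hoxa9 had 69.5, 56.2 and 86.99 normalized reads in the GFP+ libraries and no read in the GFP- library, at least 27.2-fold higher. Hoxd9 had 184, 174 and 229, against 1 read, a ratio of 222 (95% exact counting interval 39.8 to 8795). Beyond group 9, 4 genes were kept and replicate 2 differed from the other GFP+ libraries in each of them. Hoxa10 had 27.1, 12.9 and 27.5 normalized reads in the GFP+ libraries and no read in the GFP- library, and Hoxd10 had 28.5, 11.98 and 27.5, against 1 read, so that replicate 2 was the lowest GFP+ library for both. Hoxd11 had 2.19, 50.7 and 1.101 and Hoxd13 had 8.04, 59.9 and 8.81 normalized reads in the GFP+ libraries, with replicate 2 the highest, and both had no read in the GFP- library. Hoxa11, Hoxa13 and Hoxd12 were under the mean of 10 and were left out.

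**Figure D3:**
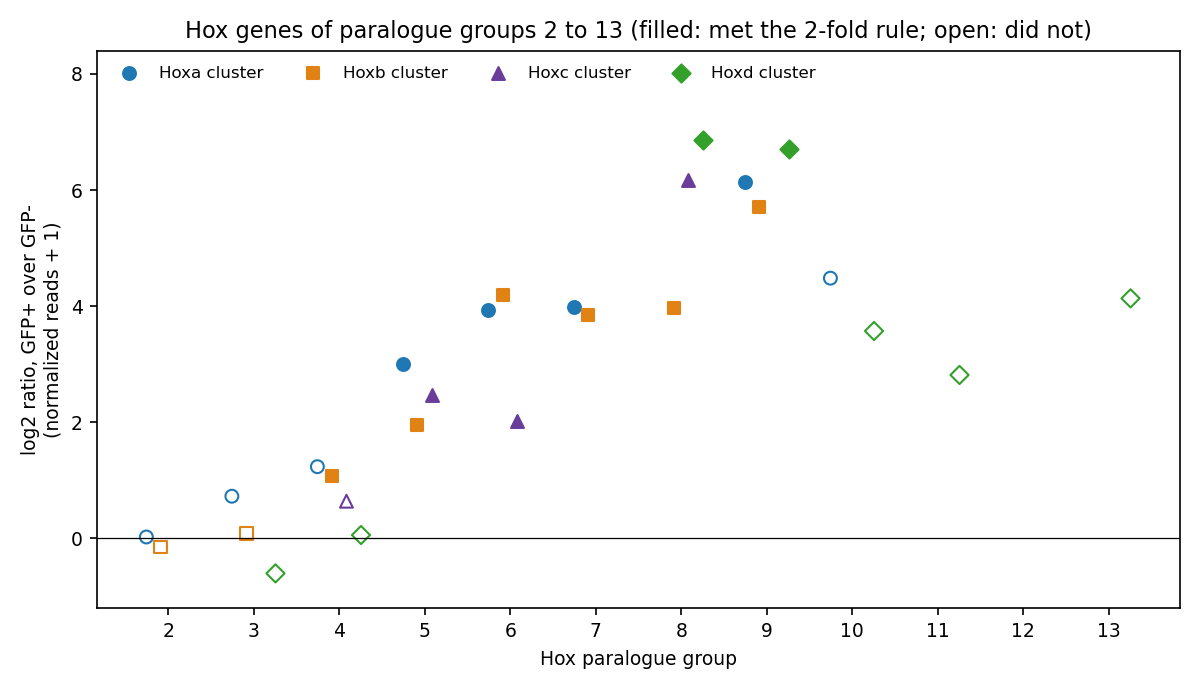
Log2 ratio of GFP+ over GFP- (y axis) of each kept Hox gene of paralogue groups 2 to 13 (x axis) and cluster (marker shape), filled where the gene stood apart. Groups 2 to 4 lie between -0.61 and 1.23, and the filled points of groups 5 to 9 lie at 1.96 or more; points of genes with no GFP- read depend on the added 1.

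Hoxd3os1, a transcript that overlaps exons of Hoxd3 and Hoxd4 on the other strand, had 309, 318 and 327 normalized reads in the GFP+ libraries, against 3 reads in the GFP- library, a ratio of 122 (95% exact counting interval 41.5 to 590.1). Hoxd3 and Hoxd4, which share its exons, did not stand apart. With no strand kept, the reads counted for these 3 genes cannot be fully assigned to either strand.

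Foregut mesenchyme wraps the endodermal tube and gives the smooth muscle and connective tissue of stomach, oesophagus and airways. Of 14 kept genes of the list, 11 were higher and none was lower, and the median log2 ratio was 2.73. Barx1, Gdnf, Colec10, Nkx2-3 and Tbx4 had under 10 normalized reads in the GFP- library. These genes passed the filter only through the GFP+ libraries, and Barx1 is also a marker used above, so their direction is not evidence. Gdnf, a growth factor that guides enteric neuron precursors through Ret, had 189, 202 and 226 normalized reads in the GFP+ libraries, against 1 read in the GFP- library, a ratio of 234 (95% exact counting interval 41.9 to 9255). Colec10, a secreted collectin, had 277, 430.5 and 296, again against 1 read, a ratio of 382 (95% exact counting interval 68.4 to 15101). Both genes were close to absent from the GFP- library at this depth and well measured in each GFP+ library.

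Nkx2-3, a homeobox factor of gut mesenchyme, had 89.2, 23.97 and 99.1 normalized reads in the GFP+ libraries, against 3 reads in the GFP- library, and replicate 2 stood well under the other GFP+ libraries. Tbx4, a T-box factor of lung mesenchyme and hindlimb, had 70.2, 69.1 and 66.1, against 2 reads. Isl1, which marks SHF progenitors, motor neurons and other cells, had 1627, 1299 and 1469, against 508 (1.52). Foxf2 (1.09), Wnt2b (0.54) and Nkx6-1 (-0.39) did not stand apart. Outside the list, Fendrr, a long non-coding RNA that starts next to Foxf1, had 1467, 1396 and 1361, against 52.1, a log2 ratio of 4.73 set beside 3.51 for Foxf1.

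The list of proepicardium and mesothelium, the cells that cover the heart and line the body cavities and arise next to the venous pole, had 10 of 14 kept genes higher and none lower (median log2 ratio 2.00). Wt1, a zinc-finger factor of mesothelium and urogenital ridge, had 540.5, 481 and 562 normalized reads in the GFP+ libraries, against 33.9 in the GFP- library (3.92). Lrrn4, a membrane protein of mesothelium, had 598, 439 and 544, against 71.2. Tcf21, a factor of epicardium and head muscle, had 204, 113 and 156, against 24.3. Not all of the list moved: Gpm6a (-0.803) and Krt19 (-0.75) had lower values in GFP+ cells that did not meet the rule, and Sema3d had 871, 1680.3 and 911, against 439.5, with replicate 2 above the other GFP+ libraries.

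Inflow and venous pole genes were higher at 9 of 18, none lower, with a median log2 ratio of 1.19. Shox2, a factor of the sinus node, had 338, 583 and 337 normalized reads in the GFP+ libraries, against 46.04 in the GFP- library (3.11). Gata6 and Gata5 were at 2.75 and 2.31, and Hand1 and Tbx3 at 2.28 and 2.14. The cofactors Meis1 (0.25) and Meis2 (0.81) and the factors Tbx20 (0.04) and Nr2f1 (-0.31) did not stand apart.

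The anterior SHF and outflow tract list had 6 of 17 kept genes higher and none lower (median log2 ratio 1.08). Tbx1, a T-box factor of pharyngeal mesoderm and endoderm, had 281, 169.6 and 275 normalized reads in the GFP+ libraries, against 46.9 in the GFP- library (2.31). Fgf10 had 453, 472 and 369, against 94.7 (2.17). Prdm1, Six2 and Rgs5 were at 2.102, 2.18 and 2.05. Mef2c, whose enhancer marks the Tomato line, had 1951, 2129 and 1892, against 1334, a difference under 2-fold. Of 5 kept genes of the cranial and pharyngeal muscle list, Lhx2 (2.87) and Tcf21 were higher, while Ebf1, Ebf2 and Ebf3 were at -0.71, -1.21 and 0.001 and did not stand apart.

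Cardiomyocyte genes were present on both sides. Of 25 kept genes 7 were higher and 1 was lower, and the median log2 ratio was 0.73. Myh6, the atrial myosin heavy chain, had 3927, 2496 and 3746 normalized reads in the GFP+ libraries, against 628 in the GFP- library (2.402), whereas Myh7, the other cardiac heavy chain, had 386, 339 and 379.9, against 589, and did not stand apart. Bmp10, a ligand of atrial and trabecular muscle, had 257, 218 and 263, against 15.6 (3.89). Myl2, the ventricular light chain, was the member on the lower side, with 32.2, 17.5 and 36.3, against 75.6. Its call is lost with an added value of 10 in place of 1. Ryr2 (1.68), Alpk3 (2.05), Tnnt2 (1.46), Ankrd1 (1.32) and Ldb3 (1.18) were higher, and Actc1, Ttn and Myl7 were at 1.02, 0.799 and 0.73 without meeting the rule. The summed level of the list was 39632, 34612 and 38736 in the GFP+ libraries, against 19395 in the GFP- library. In the smooth muscle list 3 of 8 were higher (Myh11, Lmod1 and Des), or 1 of 8 with an added value of 10, and Acta2 (0.29) and Tagln (-0.17) were nearly even.

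The endoderm and epithelial lists also leaned to the higher side. In the list of pharyngeal and foregut endoderm 11 of 16 kept genes were higher and 1 was lower (median log2 ratio 2.15), and of 17 epithelial genes 11 were higher and none lower (median 1.73). Shh, the Hedgehog ligand made by foregut endoderm and floor plate, had 1281, 1548 and 1332 normalized reads in the GFP+ libraries, against 319 in the GFP- library (2.11). Ripply3, a repressor of the pharyngeal endoderm that binds T-box proteins, had 698, 934 and 779, against 33.01 (4.55). Foxi3, a forkhead factor of pharyngeal ectoderm and endoderm, had 219, 105 and 210.3, against 4.34. These 3 genes were high in every GFP+ library, although Foxi3 was lower in replicate 2.

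The epithelial adhesion genes Epcam and Cdh1 were at 2.56 and 1.96, the splicing factor Esrp1 at 2.74 and the factor Grhl2 at 1.99. Galnt3, a glycosylating enzyme, had 587, 599 and 571 normalized reads in the GFP+ libraries, against 30.4 in the GFP- library (4.22). Foxa2 (-0.82) and Hhex (-0.57) did not stand apart, and Hnf4a, a factor of liver and visceral endoderm, was the lower member with 2.19, 0 and 7.71, against 103. The summed level of the endoderm list was 8612, 7992 and 8831 in GFP+ libraries, against 1827 in the GFP- library, and that of the epithelial list was 5921, 5873 and 5990.2, against 2132. Hnf4a was the only kept member of either list at 0 in a GFP+ library. The part of such cells in the other ratios, those of the mesodermal lists included, was not tested.

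The homeobox genes of lateral plate and mesenchyme had 6 of 13 kept genes higher (median 1.21) and those of the intermediate mesoderm 5 of 9 (median 2.52), with none lower in either list. Lhx9, a LIM homeobox factor of the urogenital ridge and limb, had 683, 918 and 635 normalized reads in the GFP+ libraries, against 51.3 in the GFP- library (3.82). Emx2, a homeobox factor of the urogenital system, had 57.8, 107 and 39.6 and no GFP- read, at least 26.1-fold higher. Snai2 and Prrx2 were at 2.27 and 1.71, while Twist1 (-0.04), Msx1 (0.05) and Pax2 (-0.25) were nearly even. The axon guidance list had 6 of 31 genes higher and 2 lower, with Sema3a at 2.21 and Ntn1 at -1.34. In the extracellular matrix list 5 of 32 were higher, among them Tnc (2.61), Dcn (2.18) and Postn (1.56), and 1 was lower.

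Of 16 kept genes of the retinoic acid list 4 were higher, 5 lower and 7 neither, and the median log2 ratio was -0.16. The higher ones were Aldh1a2 (above), Rdh10, which makes retinaldehyde (1.62), Stra6, a receptor for retinol uptake (1.44), and Aldh1a1, which had 70.2, 46.1 and 85.9 normalized reads in the GFP+ libraries and no GFP- read, at least 25.9-fold higher. The lower ones were the degrading enzyme Cyp26c1, the intracellular binding proteins Crabp1 and Crabp2, the retinol carrier Rbp4, and the receptor Rarg. Cyp26c1 had 13.9, 22.1 and 11.01, against 115 (-2.85). Crabp1 had 1297, 1443 and 1383, against 6363 (-2.21). Cyp26a1 (-0.86), Cyp26b1 (-0.25) and the receptors Rara (-0.07) and Rarb (0.42) did not stand apart.

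In the FGF list 8 of 17 kept genes were higher and none was lower (median 1.05). The ligand Fgf9 had 271, 218 and 228 normalized reads in the GFP+ libraries, against 13.03 in the GFP- library (4.09). Fgf4 had 54.1, 85.7 and 52.9 and no GFP- read, at least 24.6-fold higher. The feedback and target genes Etv5 (2.195), Il17rd (1.704), Spry4 (1.65) and Spry1 (1.601) were higher too, and the receptors Fgfr1 (0.37), Fgfr2 (1.01) and Fgfr3 (-1.22) did not stand apart. In the BMP list 6 of 22 were higher and 1 lower (median 0.50). They were the ligands Bmp10, Bmp4, Bmp7 (1.32) and Gdf6 (2.59), the antagonist Grem1 (2.61) and Smad9 (2.102), with the activin antagonist Fst on the lower side (-1.81). The target genes Id1 to Id4 ranged from -1.06 (Id1) to -0.09 (Id3) and did not stand apart.

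Of 20 Wnt genes 4 were higher and none lower (median 0.48), namely Wnt2, Rspo1 (1.83), Rspo2 (2.36) and Dkk2 (1.41). The target gene Axin2 was at -0.35. Of 14 Hedgehog genes the ligand Shh and the feedback inhibitor Hhip (1.13) were higher and the co-receptor Boc (-1.15) was lower, while the pathway targets Ptch1 (0.2996) and Gli1 (0.13) were nearly even. The call of Hhip was lost when library sizes left out mitochondrial and globin genes. Notch genes went the other way, with none of 17 higher and 5 lower (median -0.60): Dll3 (-1.65), Lfng (-1.55), Notch1 (-1.52), Hes5 (-1.36) and Dll1 (-1.26). The vascular ligands Dll4 (-0.65) and Jag1 (-0.22) did not stand apart.

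**Figure D4:**
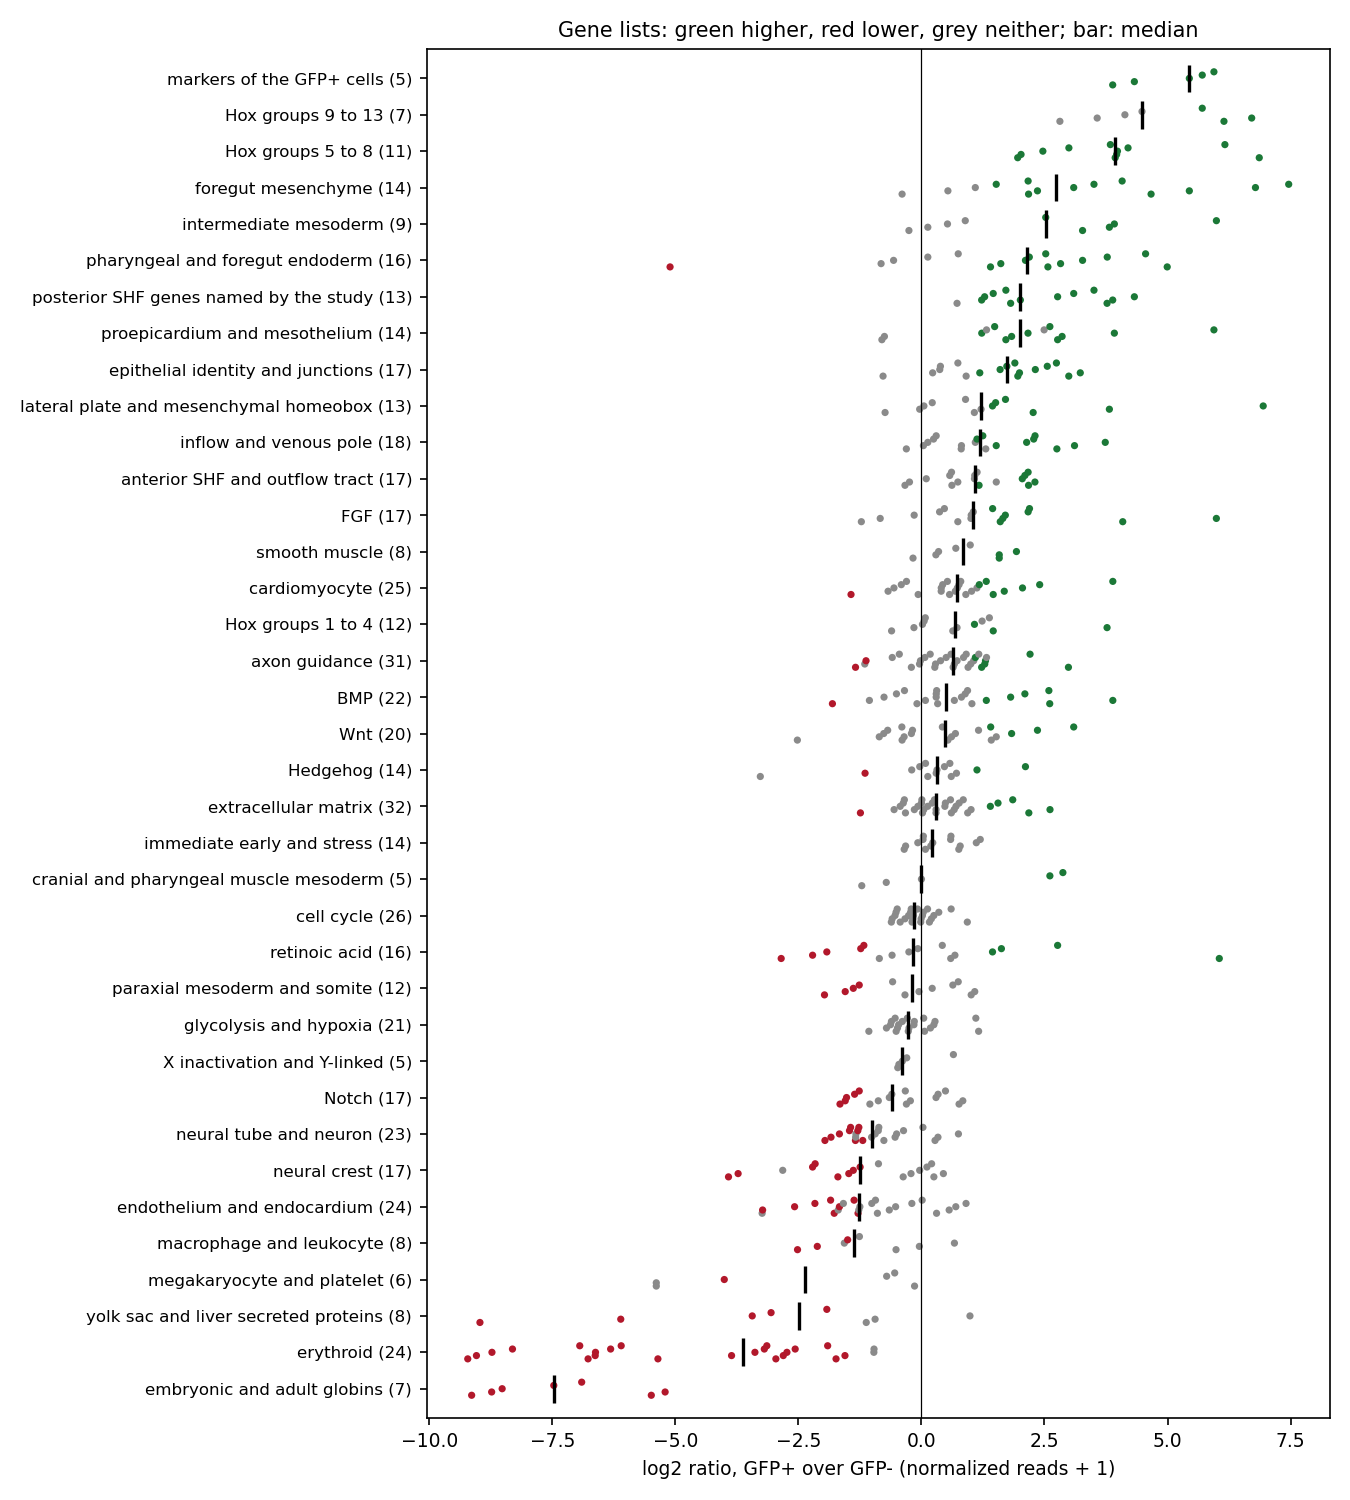
Log2 ratio of GFP+ over GFP- (x axis) of every kept gene of 37 lists (y axis, number of kept genes in brackets), green where higher, red where lower and grey where neither, with a bar at the median. The medians run between 5.44 for the markers of the GFP+ cells and -7.47 for the globins.

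The lower side was led by red blood cell genes. All 7 kept globin genes and 22 of 24 erythroid genes were lower and none was higher, with median log2 ratios of -7.47 and -3.62. Globin genes took 0.00236%, 0.00326% and 0.00429% of the reads outside mitochondrial genes in the GFP+ libraries, against 1.401% in the GFP- library (95% Wilson interval 1.396% to 1.405%, which covers counting error only). Hba-x, the embryonic zeta chain of primitive red cells, had 301, 404 and 476 normalized reads in the GFP+ libraries, against 164736 in the GFP- library, which made it 425-fold lower in GFP+ cells. Hbb-y had 107, 179.7 and 259.9, against 62995 (366-fold lower). Hbb-bh1, the other embryonic beta-like chain, had 54.1, 64.5 and 92.5, against 39204 (563-fold lower). In each of them replicate 3 was the highest GFP+ library and replicate 1 the lowest, and none came near the GFP- library. Hba-a1 and Hba-a2 are nearly identical copies, as are Hbb-bs and Hbb-bt, so the reads counted for each copy are uncertain.

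Slc4a1, the anion exchanger band 3 of the red-cell membrane, had 24.9, 15.7 and 31.9 normalized reads in the GFP+ libraries, against 7672 in the GFP- library (log2 ratio -8.31). Hemgn, a nuclear protein of haematopoietic cells, had 0, 2.77 and 2.202, against 1206 (-9.04). Rhag had 2 reads in all 3 GFP+ libraries together, against 1008 reads in the GFP- library, and the GFP- level over the GFP+ level was 1471 (95% exact counting interval 406 to 12164). The regulators Klf1 (-6.099), Gata1 (-5.35) and Tal1 (-3.19) were lower too. Of genes outside the list, Csf2rb (-8.35), the red-cell pyruvate kinase Pklr (-7.95), the blood group protein Kel (-7.35) and the manganese exporter Slc30a10 (-7.11) were among the 15 lowest ratios. Csf2rb, a receptor chain shared by cytokines of blood cells, had 2.19, 0 and 2.202, against 709.7.

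The 2 erythroid genes that did not meet the rule were Tfrc (-0.97), the transferrin receptor that all dividing cells use to take up iron, and Tmcc2 (-0.96). The summed level of the erythroid list was 9049, 9961 and 8939 normalized reads in the GFP+ libraries, against 52712 in the GFP- library, and that of the globins was 470.3, 656 and 852, against 268691. Of the defining genes, Rhag, Gfi1b, Hbb-bs, Hbb-bt and Hba-a2 were at 0 in GFP+ replicates 1 and 2, Hemgn in replicate 1, Klf1 in replicate 2 and Gata1 in replicates 1 and 3. With library sizes that leave out mitochondrial and globin genes, 617 genes were higher and 699 lower, and the median of all genes moved to -0.09.

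**Figure D5:**
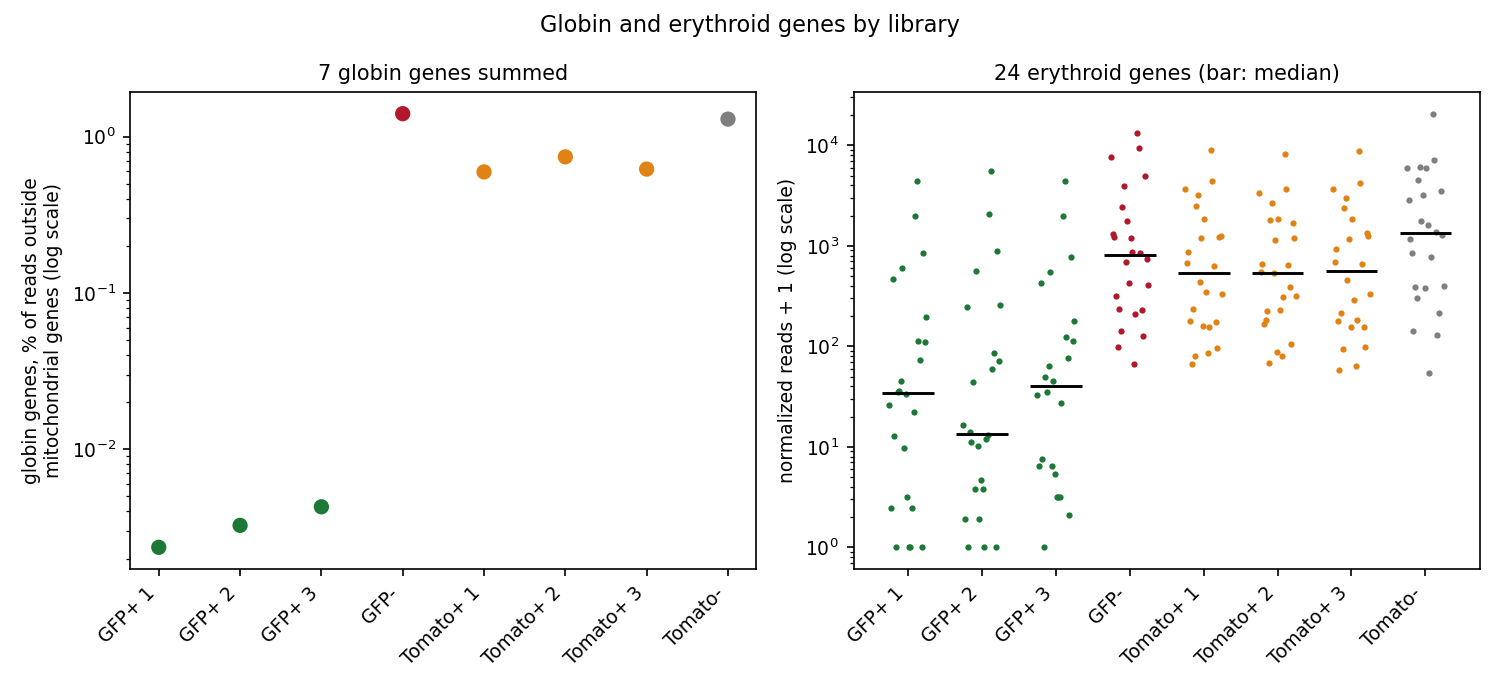
Left, the share of reads outside mitochondrial genes taken by 7 globin genes (y axis, %, log scale) in each of the 8 libraries. Right, normalized reads + 1 (log scale) of 24 erythroid genes in each library with a bar at the median; the GFP+ libraries lie lowest in both panels, and the Tomato+ libraries are at 0.594% to 0.742% globin reads.

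Endothelial and endocardial genes were lower in part, with none of 24 higher and 8 lower (median -1.26). Cdh5, the cadherin of endothelial junctions, had 95.8, 75.6 and 78.2 normalized reads in the GFP+ libraries, against 783 in the GFP- library (-3.23). Tie1 and Pecam1 were at -2.58 and -1.85. Kdr, a receptor for VEGF that also marks cardiac mesoderm, had 802, 901 and 899.6, against 700.1, and did not stand apart, and Flt1 (-0.19) and Erg (0.91) did not either. No endothelial gene of the list was at 0 in a GFP+ library, and the summed level was 4384, 4390.3 and 4391, against 5998. Of 8 leukocyte genes 3 were lower (Coro1a, Laptm5 and Mrc1), with a summed level of 447, 467 and 489, against 807, and of 6 megakaryocyte genes 1 was lower. The platelet genes Pf4 and Ppbp had no read in any GFP+ library and 40.8 normalized reads each in the GFP- library, under the minimum of 50 in the rule.

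Neural crest genes were lower at 8 of 17 and genes of the neural tube and neurons at 9 of 23, with none higher in either list (medians -1.25 and -1.01). Tfap2b, an AP-2 factor of neural crest, had 666, 506 and 714 normalized reads in the GFP+ libraries, against 2019 in the GFP- library (-1.697). Sox10, of migrating crest and glia, had 151, 137 and 110.1, against 368 (-1.48). Pax3, of dorsal neural tube, crest and somite, was at -1.38, and Fabp7, of glial precursors, at -2.16. None of these was absent from GFP+ cells. Dlx5, a homeobox factor of the pharyngeal arch crest, had 4.39, 11.1 and 2.202, against 77.3 (-3.72). The summed level of the crest list was 9049.8, 9959 and 9410.3 in the GFP+ libraries, against 20404 in the GFP- library, and that of the neural list was 8021, 8148 and 8136, against 17029. Twist1, Sox9 (-0.21), Ets1 (0.21) and Tfap2a (0.45) did not stand apart. Members of this list, the lower gene Pax3 among them, are also expressed outside crest. The share of crest cells on each side was not tested.

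Among the neural genes, the neuronal tubulin Tubb3 had 96.5, 116 and 115 normalized reads in the GFP+ libraries, against 391 in the GFP- library (-1.84). Pax6 and Stmn2 were at -1.46 and -1.44, and Sox2, Sox3 and Olig2 at -0.76, -0.87 and -0.504 without meeting the rule. In the somite list 4 of 12 were lower (Pax7, Lfng, Pax3 and Dll1), while Meox1 (-0.05), Meox2 (0.22) and Tcf15 (-0.59) did not stand apart. The 4 lower genes are also expressed in neural tube or crest, and which cells gave the difference was not tested. Of 8 yolk sac and liver genes 5 were lower. Afp, the fetal serum protein, had 4.39, 0 and 2.202, against 1293, and Fgb, a fibrinogen chain, had 0, 0 and 3.303, against 111, where the GFP+ side rests on 3 reads and the GFP- library was higher by a ratio of 125 (95% exact counting interval 41.7 to 612).

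Other genes among the 15 highest ratios with at least 200 normalized reads were Cxcl13, Foxi2 and Nr1h5. Cxcl13, a chemokine that attracts lymphoid cells, had 212, 234 and 230.1 normalized reads in the GFP+ libraries, against 4.34 in the GFP- library (5.404). Foxi2, a forkhead factor of ectoderm, had 209, 238 and 204, against 8.69 (4.49), and the nuclear receptor Nr1h5 had 293, 409 and 304, against 15.6 (4.32). All 3 were even across the GFP+ libraries apart from Nr1h5, which was highest in replicate 2.

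Lists of general cell state gave no gene that stood apart. These were cell cycle (26 genes, median log2 ratio -0.16), glycolysis and hypoxia (21, -0.27), immediate early and stress genes (14, 0.21) and X inactivation and Y-linked genes (5, -0.39). Mki67, a protein of cycling cells, had 42207, 39691 and 42142 normalized reads in the GFP+ libraries, against 40767 in the GFP- library. Ldha, of lactate production, had 25149.9, 26406 and 25035, against 35762, lower in every GFP+ library by less than 2-fold, an order that 33.4% of all genes had.

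The same rule, applied to the same 15776 genes in the Tomato line, gave 1230 higher (7.8%) and 910 lower (5.77%) in Tomato+ cells. The difference between the lines was not tested. The lines differed on both sides of the sort. Hoxa13, left out above, had 192, 321 and 202 normalized reads in the Tomato+ libraries and 213 in the Tomato- library. In the GFP libraries it had 1.101 or less. Ldha had 6247 to 6456 in the Tomato libraries, against 25035 or more in the GFP libraries. Effects of line, dissection and reporter therefore cannot be told apart between the 2 pairs. Of the 5 markers of the GFP+ cells, Osr1 was higher and Upk3b lower there. Osr1 had 401, 349.7 and 412 normalized reads in the Tomato+ libraries, against 162 in the Tomato- library, and Upk3b had 115, 103 and 90.6, against 251. Barx1 had 56.4, 46.7 and 38.8, against 4.53, which is 3 reads (log2 ratio 3.11). It missed the rule there because its Tomato+ mean of 47.3 is under the minimum of 50. Tbx5 and Hoxb9 did not stand apart in the Tomato line, with log2 ratios of 0.39 and 1.13. The Hox genes of groups 5 to 8 had a median log2 ratio of 3.94 in the GFP pair and 0.26 in the Tomato pair, where 1 of 11 was higher. Hoxb9 had 1336, 1065 and 1388 in the Tomato+ libraries, against 574 in the Tomato- library. The 7 globins had a median of -7.47 in the GFP pair and -1.13 in the Tomato pair, and the foregut mesenchyme list had 2.73 in the GFP pair and 0.36 in the Tomato pair. The filter used the GFP pair only, and some genes of these Hox and foregut lists passed it only through the GFP+ libraries. Globin genes took 0.594% to 0.742% of reads outside mitochondrial genes in the Tomato+ libraries, against 1.29% in the Tomato- library.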

How the data were processed

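RNA of sorted cells was amplified with the Ovation V2 system from 2 ng, which keeps no strand, and sequenced as paired ends. Per the labels, the authors used bcl2fastq 2.17.1.14, STAR 2.5.2 on GRCm38/mm10, HTSeq-count and DESeq2 in R 3.3.4. A paragraph of the study's methods on these sorted cells instead names single-end reads, another library kit and RSEM over an Ensembl gene build, so the annotation behind the deposited values is uncertain; the labels were followed here. The deposited table holds signal, that is reads divided by each library's DESeq2 size factor, for 8 libraries. Multiplying by the size factor gave whole reads, within 0.01, for 100% of values. The authors also deposited a mean and a log2 fold change, a test score and p-values for GFP+ against Tomato+ cells, and none of these was used.

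Genes with a mean of 10 or more over the 3 GFP+ libraries and the GFP- library were kept, the log2 ratio was taken on normalized reads + 1, and a gene stood apart by the 2-fold rule with 50 normalized reads. Ratios against 0 use a floor of 3 reads, per library for GFP- and over the group for GFP+. Named genes were Hoxb1, the 5 markers, the 13 pSHF genes, up to 4 called members of each list (100 normalized reads or more in the higher group; 2 by mean level where none was called), and the 15 highest and 15 lowest ratios (200 or more); other members named in the text were chosen after their values were seen, and some genes that the rule selects are not reported here. The markers, the lists (37, with 519 of 626 names kept) and the rule were chosen with earlier results of these data known. Coordinates are GENCODE M21, which matched 15768 symbols (96.7%). Exons of Shh, Notch1, Dll1, Hes5, Pklr, Shox2, Nr2f2 and others overlap genes on the opposite strand, so their counts are uncertain. Scripts ran in Python 3.11.15 and R 4.3.3 with limma 3.58.1, edgeR 4.0.16 and DESeq2 1.42.0, were tested on simulated data, and were repeated with other scalings, filters, added values, tests and libraries left out. Depth was 27268520 to 41597870 reads for these 4 libraries, which limits genes with few reads.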

Additional observations from a re-analysis of the deposited data

Results flagged for a closer look

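By the 2-fold rule, 9 of the 130 named genes stood apart in both lines and in opposite directions, and this difference between the lines was not tested. Named genes were picked in part by their calls and ratios in the GFP pair. The share of all genes with opposite calls was not computed, so the count of 9 has no background. Named genes with an opposite order in the Tomato line that did not meet the rule there are not counted. Lower in GFP+ and higher in Tomato+ cells were Cyp26c1 (log2 ratio -2.85 in the GFP pair and 4.04 in the Tomato pair), Dll3 (-1.65 and 1.16), Lfng (-1.55 and 1.66), Sox10 (-1.48 and 1.51) and Tubb3 (-1.84 and 1.23). Higher in GFP+ and lower in Tomato+ cells were Fgf10 (2.17 and -1.32), Hoxd9 (6.71 and -1.53), Ripply3 (4.55 and -3.09) and Upk3b (5.94 and -1.28). The Hoxd9 value in the GFP pair rests on 1 GFP- read. Cyp26c1 had 108, 76.4 and 87.7 normalized reads in the Tomato+ libraries, against 4.53 in the Tomato- library, which is 3 reads. Ripply3 had 20.9, 12.7 and 20.1, against 157. Mitochondrial genes took 51.4% of the reads in the Tomato- library.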

How the results depend on the processing

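The counts of genes that stood apart, 698 higher and 592 lower, were 221 and 148 at 4-fold and 339 and 278 with a minimum of 200 normalized reads. Leaving out 1 GFP+ library in turn gave 725 to 1163 higher and 641 to 1073 lower, the highest of each without replicate 2. In that setting 673 of the 698 and 592 of the 592 genes were shared. The rule asks every GFP+ library to lie outside the GFP- library, so leaving out a library loosens it. The full sharing of lower genes was fixed by the rule, and the larger counts are not evidence of stability. With replicate 2 alone, added after seeing the data, 1188 were higher and 1209 lower. In fits over these 4 libraries the spread comes from the 3 GFP+ libraries, so that the lone GFP- library is assumed to vary like them. With this assumption limma called (adjusted p under 0.05, Benjamini-Hochberg, in all 3 tools) 431 higher and 170 lower (336 and 129 shared with the fold rule) and edgeR's quasi-likelihood test 340 and 215 (266 and 174 shared). DESeq2 called 937 and 545 (541 and 332 shared). Other scalings, no filter, averaged replicates and an added value of 10 gave 592 to 731 higher and 506 to 699 lower. Of 910 values of the named genes, 840 moved by less than the spread between replicates. No named gene that stood apart changed sign, and the other named genes were not checked for this. The genes that stood apart were largely picked by their ratios in these libraries, and every setting used the same GFP- library. The lack of reversals was therefore nearly fixed in advance. Hhip, Hoxb4 and Sema6a lost their call with library sizes that leave out mitochondrial and globin genes, and Lmod1 with an added value of 10. No paired analysis was possible because the GFP- side is 1 library with no replicate number.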
